A study of Mus musculus with 91 samples.

Results

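Mouse regulatory T cells (Tregs) were compared 1.5 h after injection of interleukin-2 (IL-2) or of a fusion protein (FP) in which IL-2 is joined to CD25, the alpha chain of its own receptor. The comparison holds the 8 libraries titled for these treatments at that time, 4 after FP and 4 after IL-2, of 91 samples in the series. All came from spleens of C57/BL6 mice carrying a red fluorescent Foxp3 reporter, and Tregs were obtained by sorting. FP mice received 20 µg per the labels, and the dose of IL-2 is not given in the sources used here, so equal doses cannot be assumed. The injected molecule is labelled mIL-2 in one group and mIL-2/CD25 in the other, and 4 libraries of mice injected with PBS served as background. The labels do not say that replicates were separate animals, and all p-values here describe library-to-library spread, which may be technical.

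Tregs carry CD25 at rest and depend on IL-2 made by other T cells. IL-2 bound to CD25 recruits the beta and common gamma chains, whose kinases JAK1 and JAK3 phosphorylate STAT5, and STAT5 dimers then enter the nucleus and switch on genes such as Cish, the Socs genes, Il2ra and Foxp3. The same receptor also feeds PI3K, mTOR and MYC, through which T cells build ribosomes, import amino acids and prepare to grow. Within a molecule that carries both IL-2 and CD25, the cytokine can be held by its partner and becomes available over time, which is why such proteins are studied as long-acting forms of IL-2. The comparison asks how the transcript response to each protein stood shortly after injection.

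Libraries of the 1.5 h table held 12.21 to 15.33 M counted reads (M, mega). The defining Treg markers were present in all of them: the summed level of 8 Treg markers, Il2ra and Foxp3 among them, was 3610 to 3860 CPM, the reads of a gene relative to the library's scaled total, after PBS, 5690 to 6090 after IL-2 and 5330 to 5790 after FP. The sum includes genes that IL-2 induces, and Il2ra had means of 597 CPM after PBS, 2192 after IL-2 and 2064 after FP. Over the 8 markers the median log2 change against PBS was -0.04 after IL-2 and -0.005 after FP. Summed levels of markers of other cells were 246 to 297 CPM after IL-2 and 272 to 346 after FP for 12 B cell genes, 466 to 2500 and 932 to 1760 for 16 myeloid genes, 20.5 to 23 and 20.4 to 24.7 for the 7 of 10 CD8 and NK genes in the table, and 11.3 to 23.1 and 21.7 to 54.8 for 8 of 12 erythroid and platelet genes. Of the last, 7 of 7 tested had higher means after FP, with a median log2 difference of 1.15. Their part in the results below was not tested. The replicate numbers name libraries. Whether they also pair them is not known, and the main fit did not pair them. FP replicate 4 had the lowest level of several growth lists among the FP libraries, and FP replicate 2 carries another date in its sample identifier than the rest.

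No gene was called different between FP and IL-2 by edgeR at an adjusted p below 0.01 (0 of 16643 genes tested, 0%). None passed at 0.05 or 0.1 either, and the smallest adjusted p was 0.286. DESeq2 on the same counts gave 11 genes below 0.05 and 22 below 0.1. At an unadjusted p below 0.05 there were 970 genes (5.83% of all tested), 558 of them lower after FP (3.353%) and 412 higher (2.476%), and under upper quartile scaling these were 309 lower and 591 higher. At 0.01 DESeq2 called 1 gene, Ripor2, and limma-voom called 0. The 95% interval of the difference lay wholly within 2-fold for 14298 genes (85.9%), which bounds the difference of most genes at this depth and spread. The median interval reached 0.36 to either side on the log2 scale, and the common biological variation between replicates was 16.3%. Genes were close to evenly divided in direction, 52% being lower after FP, with a median log2 difference of -0.0084.

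The receptor chains and their kinases had overlapping levels in both groups. Il2ra, which encodes CD25 (chromosome 2, 11642807 to 11693193 in GRCm38), was at 2070, 2080, 2280 and 2340 CPM in the 4 IL-2 libraries and at 2130, 2140, 2140 and 1840 CPM in the 4 FP libraries. The groups overlapped, only FP replicate 4 lay below every IL-2 library, and all 8 were above the PBS libraries, which held 545 to 630 CPM. The log2 difference of Il2ra, FP minus IL-2, was -0.09 ± 0.085 (SE, n = 4 and 4), with a 95% interval of -0.27 to 0.10. Il2rb, the signalling beta chain, was at 1531 ± 156 CPM (SD) after IL-2 and 1379 ± 96.5 after FP, a log2 difference of -0.15 (-0.35 to 0.04), or -0.10 without IL-2 replicate 1. For Il2rg, the common gamma chain, the interval was -0.16 to 0.19, for the kinase gene Jak3 -0.28 to 0.22, for Stat5a -0.20 to 0.20 and for Stat5b -0.09 to 0.33. All 13 receptor, JAK, STAT and adaptor genes of a list were tested, 0 had an unadjusted p below 0.05 in either direction, and their median difference was -0.03.

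Negative feedback genes, among them Cish and the Socs genes that STAT5 induces, also had differences with intervals inside 2-fold. Cish was at 638, 750, 708 and 746 CPM after IL-2 and at 656, 625, 612 and 591 CPM after FP, against 160 to 237 CPM after PBS. Its highest FP library lay above the lowest IL-2 library, and the log2 difference of -0.19 ± 0.11 (SE) had an interval of -0.44 to 0.05. Socs2 was at 98.6, 100, 135 and 128 CPM after IL-2 and at 117, 106, 112 and 104 CPM after FP, with all FP libraries inside the range of the IL-2 libraries. Its difference was -0.08 (-0.31 to 0.16). Socs1 was at 214 ± 10.4 CPM (SD) after IL-2 and 184 ± 17.2 after FP, with a difference of -0.22 (-0.39 to -0.05) and an adjusted p of 0.79 by edgeR. Socs3 was at 294 ± 60.3 and 234 ± 15.3 CPM, a difference of -0.33 (-0.73 to 0.07). IL-2 replicate 1, at 383 CPM, was the highest, and without it the difference was -0.18. Of 21 feedback genes tested, 1 was lower and 1 higher at an unadjusted p below 0.05, beside 3.353% and 2.476% of all genes. Without FP replicate 2, 3 were lower at that p. The higher gene was Ptpn6, a phosphatase that dampens receptor signalling, at 142 ± 13 and 164 ± 10 CPM.

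The sequences before a RefSeq start of 2 STAT5 targets are printed to show the letters STAT5 is known to read. Both are panel genes whose 250 bases before a RefSeq start (GRCm38.p6) hold the letters TTCNNNGAA, the STAT core motif. The motif is its own reverse complement and so was searched on both strands at once. Where a gene had several starts, any start with a match counted. The Socs3 window lies inside the gene by its GENCODE position (chromosome 11, 117966079 to 117970047). Matches are in capitals. Both were chosen after the values were seen.
Lta, chr17:35205352-35205601, minus strand: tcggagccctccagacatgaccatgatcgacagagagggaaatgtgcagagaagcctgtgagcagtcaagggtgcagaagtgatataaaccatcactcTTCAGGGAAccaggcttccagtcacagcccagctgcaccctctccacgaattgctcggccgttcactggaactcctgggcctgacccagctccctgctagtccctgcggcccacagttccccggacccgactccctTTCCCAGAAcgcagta
Socs3, chr11:117969367-117969616, minus strand: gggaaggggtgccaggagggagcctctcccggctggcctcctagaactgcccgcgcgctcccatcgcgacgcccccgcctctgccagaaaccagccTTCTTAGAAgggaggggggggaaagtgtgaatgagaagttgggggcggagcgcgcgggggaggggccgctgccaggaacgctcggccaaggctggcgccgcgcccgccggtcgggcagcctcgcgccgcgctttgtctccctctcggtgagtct
Lta, a cytokine of the TNF family, had 2 matches, which began 152 and 16 bases before the start, and Socs3 had 1, which began 154 bases before it. The motif was present in 7.31% of the 10444 tested genes that have such a window, in 4 of 23 panel genes with one (17.4%) and in 6 of 23 genes of the STAT5 target list (26.1%). Lists not chosen for STAT5 had similar or higher shares. These were 6 of 16 NF-kB and TNF receptor genes (37.5%), 6 of 24 interferon-stimulated genes (25%) and 5 of 20 other cytokine receptor genes (25%). The share was 0 of 20 in the MYC network list and 0 of 10 in the receptor, JAK and STAT list. A match of letters is a description and not a bound site. Lta was at 162, 154, 187 and 206 CPM after IL-2 and at 171, 150, 131 and 149 CPM after FP, with 19 to 25.6 CPM after PBS. The groups overlapped, and the log2 difference was -0.24 ± 0.11 (SE, interval -0.47 to -0.0033, adjusted p 0.85 by edgeR).

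Among the other STAT5 targets and Treg genes, the transcription factor genes Myc and Foxp3 differed by -0.05 (-0.43 to 0.33) and -0.10 (-0.29 to 0.08). Foxp3 was at 862 ± 87.5 CPM (SD) after IL-2 and 803 ± 38.4 after FP, and Myc at 460 ± 99.2 and 444 ± 89. The kinase genes Pim1 and Pim2 differed by -0.04 and 0.04, and the survival gene Bcl2 by -0.13 (-0.38 to 0.11), which was -0.05 without FP replicate 4 and -0.06 without IL-2 replicate 2. The Foxp3 difference was -0.06 without IL-2 replicate 2 or 4. Lrrc32, whose protein GARP holds latent TGF-beta on the Treg surface, was at 1130 to 1220 CPM after IL-2 and 976 to 1110 after FP without overlap, a difference of -0.15 (-0.40 to 0.09). The coreceptor genes Ctla4 and Icos differed by -0.16 (-0.66 to 0.34; -0.30 to 0.02 with single libraries left out) and -0.29 (-0.63 to 0.05), and Il10, at 5.37 and 5.45 CPM, by 0.02 (-0.74 to 0.78). Across 28 STAT5 targets 23 were lower after FP with a median of -0.15, 6 of them at an unadjusted p below 0.05 and 0 called. Without FP replicate 4, 20 were lower and 3 had such a p. Of all genes, 3.353% had such a p and were lower after FP. Across 25 Treg identity genes 21 were lower with a median of -0.15, 2 at that p, Izumo1r, the folate receptor family gene of Tregs, and the zinc finger gene Plagl1, whose difference of -0.35 was -0.21 without IL-2 replicate 2. Without FP replicate 3 or IL-2 replicate 4 there were 4 at that p. The list score of the STAT5 targets, the mean log2 CPM of the members, was 6.76 to 6.95 in the FP libraries and 6.97 to 7.12 in the IL-2 libraries, without overlap.

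**Figure D1:**
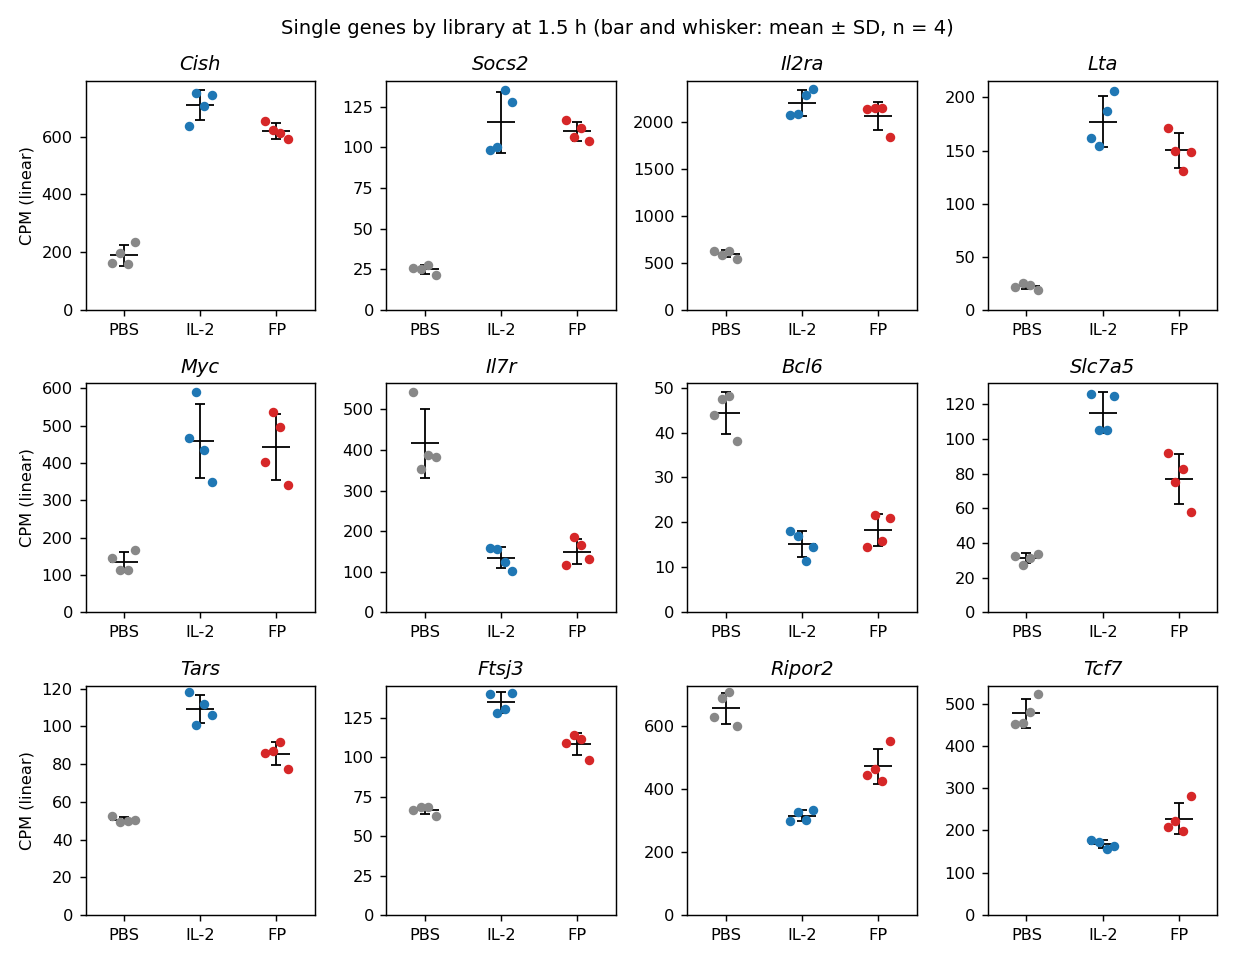
CPM on linear axes from 0 in each PBS, IL-2 and FP library for 12 genes, with the mean and SD of each group (n = 4). FP and IL-2 points intermingle for Cish, Socs2, Il2ra, Lta, Myc, Il7r and Bcl6, and separate for Slc7a5, Tars, Ftsj3, Ripor2 and Tcf7.

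The widest gaps of the panel were those of Enah, Gzmb and Lif, whose means after PBS were low, at 1.12, 4.11 and 4.77 CPM. Lif, which encodes leukemia inhibitory factor (chromosome 11, 4257557 to 4272514), was at 64.5, 63.4, 81.5 and 86.3 CPM after IL-2 and at 62.8, 37.5, 41.6 and 27.3 CPM after FP. The groups did not overlap, although the highest FP library lay just under the lowest IL-2 library, and all 8 were above the PBS libraries, which held 4.09 to 5.64 CPM. The log2 difference was -0.81 ± 0.20 (SE), with an interval of -1.22 to -0.39 and an adjusted p of 0.62. Enah, an actin regulator, was at 15.3 ± 2.74 CPM (SD) after IL-2 and 8.59 ± 3.15 after FP, a difference of -0.84 ± 0.26. The highest FP library lay above the lowest IL-2 library. Gzmb, the granzyme with which effector Tregs kill targets, was at 16.4, 8.09, 9.51 and 8.86 CPM after IL-2 and at 7.09, 5.15, 6.95 and 5.18 after FP, a difference of -0.81 ± 0.26. IL-2 replicate 1 was far above the rest of its group in Gzmb, and without it the difference was -0.53. Among the narrower gaps, the growth factor gene Hbegf was at 15.1 ± 2.63 (SD) and 10.6 ± 1.87 CPM, a difference of -0.51 ± 0.16 (SE). Myb, a transcription factor of proliferating lymphocytes, was at 316 ± 29.5 and 253 ± 58.5 CPM, a difference of -0.32 ± 0.16. The last was -0.17 without FP replicate 4, which held 165 CPM against 278 to 288 in the other FP libraries.

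Over the whole panel of 32 named genes, 23 were lower and 9 higher after FP, with a median difference of -0.12 and 0 called. The interval lay within 2-fold for 29 of the 32 (90.6%, beside 85.9% of all genes), the exceptions being Lif, Enah and Gzmb. Libraries of the groups did not overlap for 4 genes lower after FP, Lif, Gzmb, Slc7a5 and Lrrc32, and for 1 higher, Tcf7, where all genes gave 2.16% lower and 1.6% higher without overlap. Against PBS, IL-2 raised 18 of the 32 and lowered 4 by edgeR, and FP raised 17 and lowered 4. The shares over all genes were 8.39% higher and 5.79% lower for IL-2 and 4.39% and 2.28% for FP. Both of these comparisons use the same PBS libraries, so their counts are set side by side only.

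Genes that build ribosomes lay lower after FP in every case measured. Of 50 ribosome biogenesis genes, which make, process and fold ribosomal RNA, 50 had lower means after FP, beside 52% of all genes. Their differences ran from -0.42 to -0.07 with a median of -0.28, 39 had an unadjusted p below 0.05 (3.353% of all genes did in that direction), and 0 were called. FP and IL-2 libraries did not overlap for 30 of the 50 (60%, beside 2.16% of all genes). All 50 intervals lay within 2-fold. Against PBS 49 were called higher after IL-2, with a median log2 change of 1.01, and 41 after FP, with a median of 0.70. Over all genes these calls made up 8.39% and 4.39%. Members of the list share the libraries, so their number is not a number of replicates.

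Single members show the size of this gap. Ftsj3, a methyltransferase of the large subunit precursor (chromosome 11, 106249142 to 106256079), was at 140, 128, 131 and 141 CPM after IL-2 and at 109, 114, 112 and 98.3 CPM after FP, with 62.8 to 68.8 CPM after PBS. Every FP library lay below every IL-2 library and above every PBS library, and the log2 difference was -0.32 ± 0.069 (SE, adjusted p 0.62). Wdr75, a factor of the small subunit processome, was at 95.9 ± 4.57 CPM (SD) after IL-2 and 75.9 ± 6.83 after FP, 1.26-fold lower, and Rrp12, an export factor of both subunits, at 75.6 ± 5.85 and 57.05 ± 8.11 CPM, 1.32-fold lower. The pseudouridine synthase gene Pus7 (54.1 ± 7.22 after FP and 72.5 ± 2.78 CPM after IL-2) and the AAA ATPase gene Spata5 (103 ± 13.9 and 137 ± 8.1 CPM), outside the list but among the 10 genes of smallest p on the lower side, were 1.34-fold and 1.33-fold lower without overlap.

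The list score of ribosome biogenesis was 6.33, 6.34, 6.33 and 6.05 in the FP libraries and 6.61, 6.46, 6.54 and 6.54 in the IL-2 libraries, with 5.53 to 5.57 after PBS. FP replicate 4 stood apart below its group. Without it all 50 genes were still lower, 30 had an unadjusted p below 0.05 and the median difference was -0.21. Without FP replicate 2, 36 had such a p and the median was -0.30.

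MYC is known to drive many of these genes through the E-box letters CACGTG, also their own reverse complement. Within 250 bases upstream the E-box was present in 3 of 44 ribosome biogenesis genes with a window (6.82%), in 8 of 20 genes of the MYC network list (40%) and in 5 of 12 translation factor genes (41.7%), beside 9.57% of all tested genes. One of the 3, Nop2, which encodes a ribosomal RNA methyltransferase, is shown with its match in capitals, as the member of these with the smallest p, and was so chosen after the values were seen.
Nop2, chr6:125131633-125131882, plus strand: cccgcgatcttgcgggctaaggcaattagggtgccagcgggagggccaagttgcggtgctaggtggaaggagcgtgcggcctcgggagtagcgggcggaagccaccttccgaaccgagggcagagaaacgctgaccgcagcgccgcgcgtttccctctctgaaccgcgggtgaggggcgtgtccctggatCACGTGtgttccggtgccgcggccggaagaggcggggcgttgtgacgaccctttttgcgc
The match began 60 bases before a RefSeq start in GRCm38.p6. Nop2 had a log2 difference of -0.33 ± 0.085 (SE, adjusted p 0.62), from a mean of 111 CPM after IL-2 to 88.5 CPM after FP.

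**Figure D2:**
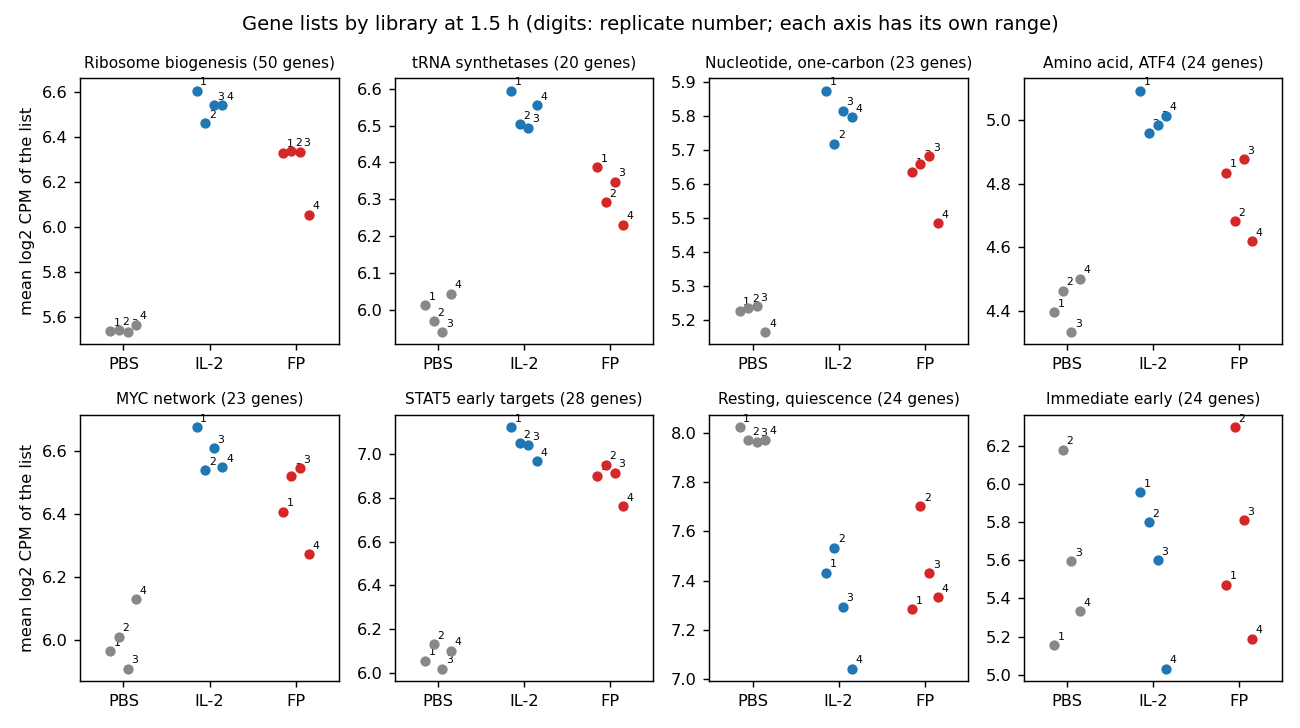
Mean log2 CPM of the genes of 8 lists in each library (digits give the replicate; each axis has its own range and does not start at 0). In the ribosome biogenesis, tRNA synthetase, nucleotide, amino acid and STAT5 target lists all 4 FP libraries lie below all 4 IL-2 libraries and above the PBS libraries. FP and IL-2 libraries overlap in the MYC network, resting and immediate early lists.

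Genes that load amino acids onto tRNA followed the same direction. All 20 tRNA synthetase genes tested had lower means after FP (19 under upper quartile scaling), with a median of -0.23. Of these 13 had an unadjusted p below 0.05, 8 did not overlap (40%) and 0 were called. Over all genes, 3.353% had such a p in that direction and 2.16% lay lower without overlap. Tars, the threonine enzyme (chromosome 15, 11382301 to 11399665), was at 118, 101, 112 and 106 CPM after IL-2 and at 86.1, 86.7, 91.9 and 77.6 CPM after FP, with 49.5 to 52.4 CPM after PBS. The groups did not overlap, and Tars had the smallest p of all genes lower after FP under the naming rule, with a difference of -0.35 ± 0.072 (SE, adjusted p 0.62). Mars, the methionine enzyme, was at 57.8 ± 3.47 CPM (SD) and 47.2 ± 3.93, and Iars, the isoleucine enzyme, at 149 ± 9.89 and 118 ± 17.4 CPM. Against PBS 17 of the 20 were called higher after IL-2 and 5 after FP, beside 8.39% and 4.39% of all genes. Their median log2 change against PBS was 0.55 after IL-2 and 0.30 after FP, so the counts depend on the threshold.

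Amino acid import and the ATF4 programme, which cells use to supply amino acids, were lower in 22 of 24 genes with a median of -0.21. Of these 10 had an unadjusted p below 0.05 and 6 did not overlap (25%). The shares of all genes in that direction were 3.353% and 2.16%. Slc7a5, the large neutral amino acid transporter, was at 126, 105, 105 and 125 CPM after IL-2 and at 92.1, 75.3, 82.5 and 58 CPM after FP, against 27.1 to 33.7 CPM after PBS. All FP libraries lay between both other groups, and the difference was -0.58 ± 0.12 (SE, interval -0.85 to -0.32, adjusted p 0.62), or 1.5-fold. Slc7a1, a transporter of cationic amino acids, was at 202 ± 11.8 (SD) and 155 ± 25.5 CPM. Slc1a4, which carries small neutral amino acids, had the largest difference of the list, -1.08 ± 0.30, on low levels of 2.47 to 4.25 CPM after IL-2 and 1.16 to 2.41 after FP.

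Nucleotide and one-carbon genes were lower in 22 of 23, with a median of -0.20, 10 at an unadjusted p below 0.05 and 9 without overlap (39.1%). The shares of all genes, 3.353% lower at that p and 2.16% lower without overlap, also stand beside the lists that follow. Ctps, which makes CTP, was at 55.5, 54.9, 51.5 and 60.1 CPM after IL-2 and at 46.8, 45.1, 46.4 and 34.2 CPM after FP. The groups did not overlap, and the difference was -0.37 ± 0.099 (SE). Shmt1, which moves one-carbon units from serine to folate, was at 36.9 ± 2.07 CPM (SD) and 30.7 ± 2.31, and Cad, the first enzyme of pyrimidine synthesis, at 139 ± 13.4 and 115 ± 6.96 CPM. Of 23 MYC network genes 21 were lower (median -0.18, 6 at that p, 0 lower without overlap), with a median of -0.12 without FP replicate 4 and 10 at that p without FP replicate 3. The exception at that p was Mxd4, a MAX partner that opposes MYC, at 108 ± 7.6 CPM after IL-2 and 147 ± 17.3 after FP, a difference of 0.44 ± 0.12 (SE) without overlap. Translation factors were lower in 16 of 18 (median -0.14, 5 at that p, 1 lower without overlap). The count at that p was 2 without FP replicate 4, 3 without IL-2 replicate 1, and 8 without FP replicate 2 or IL-2 replicate 4. Eif2s1, the alpha subunit of eIF2, was at 122 ± 12.3 and 99 ± 12.2 CPM. In glycolysis 13 of 19 were lower (median -0.08, 3 at that p, 2 lower without overlap). The count at that p was 1 without FP replicate 4 or IL-2 replicate 1 and 6 without IL-2 replicate 2, and the median was -0.04 without IL-2 replicate 1 or under upper quartile scaling and -0.13 without FP replicate 3. The hexokinase gene Hk2 was at 35.6 ± 3.8 and 25.2 ± 5.66 CPM, and Slc16a1, a monocarboxylate transporter, at 66 ± 8.86 and 47.2 ± 7.63 CPM, 1.4-fold lower without overlap. Cholesterol synthesis divided evenly, with 12 of 24 lower, a median of -0.02 and 1 gene at that p, Mvk, which was higher. List scores of FP and IL-2 libraries overlapped for the MYC network, translation factor, glycolysis and cholesterol lists.

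**Figure D3:**
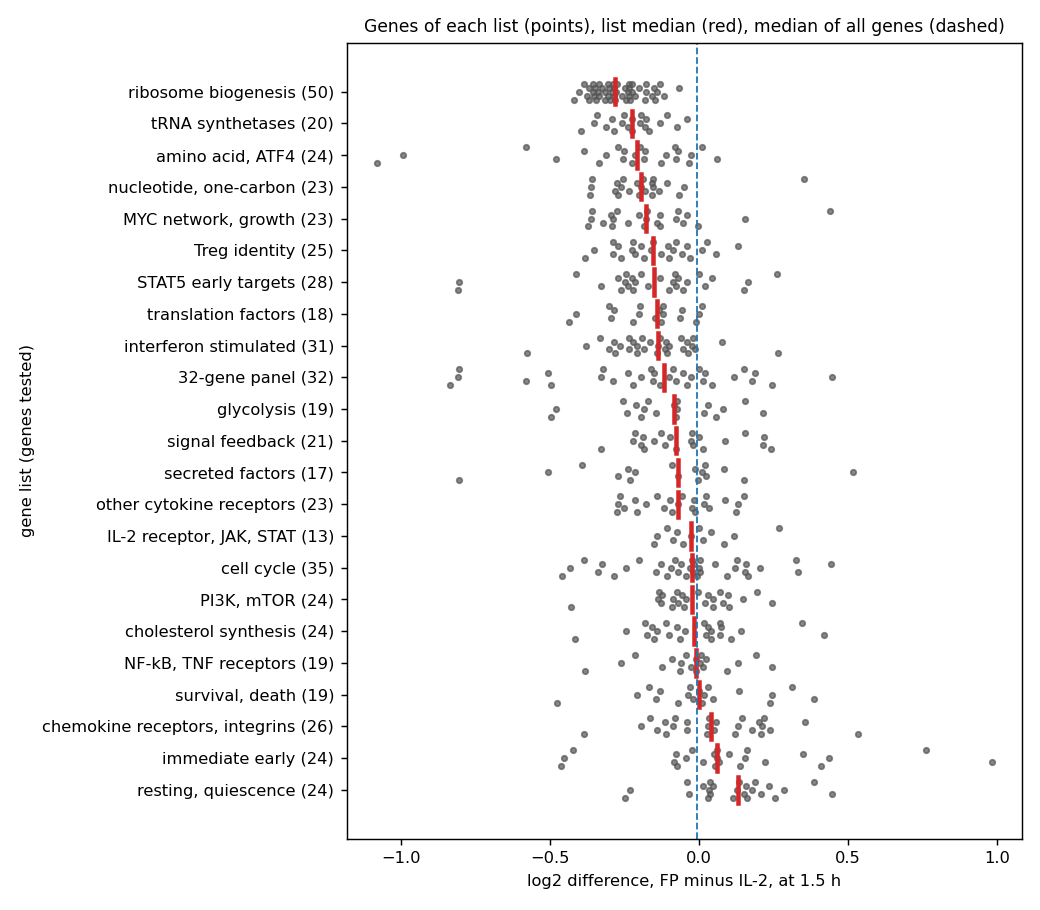
Log2 difference FP minus IL-2 of each gene (grey points) in 23 gene lists, with the median of the list (red bar) and of all genes (dashed line at -0.0084). The ribosome biogenesis genes lie wholly to the left of the line, with a median of -0.28, and the resting and quiescence genes mostly to the right, with a median of 0.13. Without FP replicate 2 the median of the resting and quiescence genes was 0.005.

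Genes of resting T cells lay on the other side. Tcf7, which encodes the transcription factor TCF-1 (chromosome 11, 52252371 to 52283014), was at 177, 172, 156 and 164 CPM after IL-2 and at 208, 223, 199 and 281 CPM after FP, with 452 to 524 CPM after PBS. Every FP library was above every IL-2 library and below every PBS library, and the difference was 0.45 ± 0.10 (SE, interval 0.23 to 0.66, adjusted p 0.62). Arl5c, a small GTPase gene, was at 17.3 ± 2.51 (SD) and 22.6 ± 4.67 CPM, a difference of 0.39 that was 0.23 without FP replicate 4. The cytokine receptor gene Il7r, at 135 ± 26.6 and 150 ± 31.6 CPM, differed by 0.15 (-0.22 to 0.53). For the homing genes Klf2 and S1pr1 the differences were 0.19 (-0.22 to 0.60) and 0.18 (-0.01 to 0.37), and for the death gene Bbc3 0.24 (-0.24 to 0.73). Single libraries moved these values: without FP replicate 2 they were 0.03 for Il7r, 0.01 for Klf2, 0.11 for S1pr1 and 0.14 for Bbc3, and without IL-2 replicate 4 they were 0.04 for Il7r, 0.03 for Klf2 and 0.14 for Bbc3. Without IL-2 replicate 2 they were larger, at 0.23 for Il7r, 0.36 for Klf2 and 0.39 for Bbc3. Of 24 resting and quiescence genes, 2 were higher at an unadjusted p below 0.05 and 1 was higher without overlap. Shares of all genes were 2.476% and 1.6%. By direction alone, 20 of the 24 were higher after FP, with a median of 0.13. This rests in part on FP replicate 2, without which 13 of 24 were higher and the median was 0.005, and on IL-2 replicate 4, without which 16 were higher and the median was 0.02. The list scores overlapped, at 7.285 to 7.701 in the FP libraries and 7.043 to 7.534 in the IL-2 libraries.

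Ripor2, an inhibitor of the GTPase RhoA (chromosome 13, 24582189 to 24733816), had the smallest p of all 16643 genes. It was at 298, 326, 302 and 332 CPM after IL-2, at 444, 461, 425 and 551 CPM after FP, and at 628, 687, 705 and 597 CPM after PBS. The 3 groups did not overlap, FP lying between the others. The difference was 0.58 ± 0.091 (SE, interval 0.39 to 0.78), or 1.5-fold. Its adjusted p was 0.286 by edgeR on the 12 libraries, 2.74e-05 by DESeq2, and 0.00141 by edgeR when the 24 libraries of the 1.5 h and 16 h tables were fitted together, so the call differs between fits. After Ripor2, the genes of smallest p on the higher side under the naming rule were Bcl9l, a coactivator of beta-catenin (71.8 ± 2.07 CPM after IL-2, 96.6 ± 11.9 after FP, SD), the kinase gene Ptk2b (184 ± 6.85 and 235 ± 22.1), Tcf7, described above, and Klhl3, a ubiquitin ligase adaptor (8.42 ± 0.543 and 12.6 ± 2.29). After these came the actin regulator Evl, the transcription factor gene Rfx1, the phosphatase gene Cdc25b, the acetate enzyme gene Acss1 and the calcium sensor gene Stim1, with differences of 0.27 to 0.60. All 10 had lower means after IL-2 than after FP and lower means after FP than after PBS.

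On the lower side the list was completed by Rtp4, an interferon-induced chaperone of receptors (39.4 ± 0.785 and 28.2 ± 4.03 CPM, SD), Arhgef3, a RhoA exchange factor (394 ± 29.2 and 311 ± 26.8), Bcap29, a membrane protein of the endoplasmic reticulum (43.9 ± 3.93 and 32.1 ± 4.24), and Rbpj, the DNA-binding partner of Notch (86.3 ± 2.79 and 71.6 ± 2.3). DESeq2 gave Rtp4, Arhgef3, Rbpj, Slc7a5, Ftsj3, Tars, Bcl9l and Ptk2b an adjusted p of 0.0422 and Pus7 one of 0.0476, where edgeR gave 0.62 for each, and Lif one of 0.094. The others of its 11 genes below 0.05 were Ripor2 and Gm43305, a predicted gene outside the naming rule, with a log2 difference of -1.29 and an adjusted p of 0.04 by DESeq2.

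**Figure D4:**
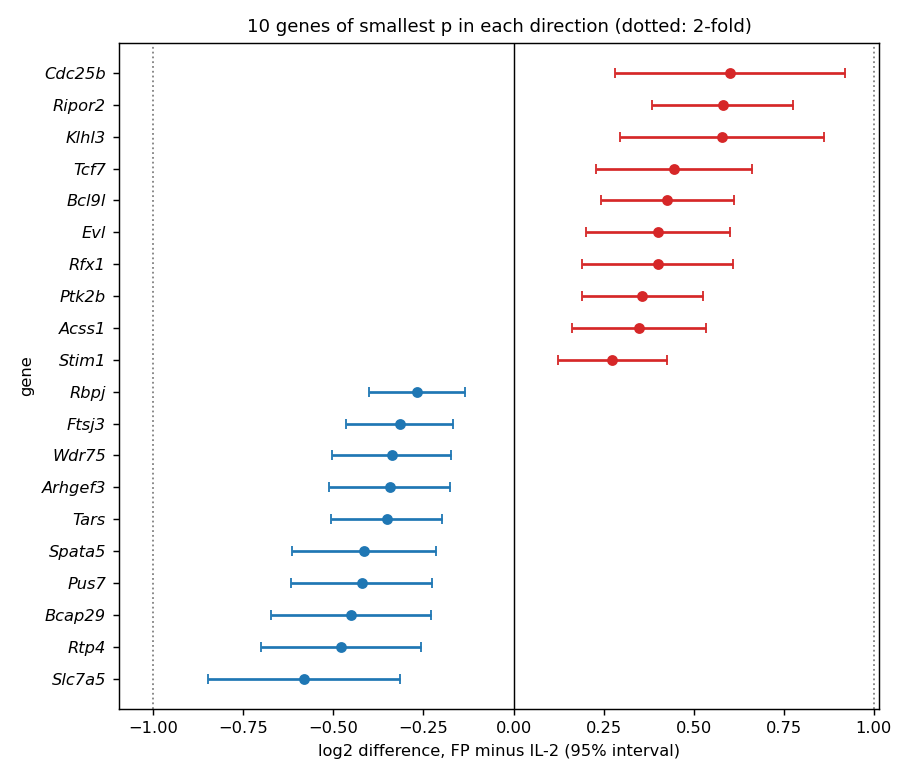
Log2 difference FP minus IL-2 with its 95% interval for the 10 named genes of smallest p in each direction, with dotted lines at 2-fold. Every interval shown excludes 0 and stays within 2-fold, the genes having been picked for small p. None was called by edgeR on the 12 libraries, while DESeq2 called Ripor2.

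Interferon-stimulated genes were lower in 29 of 31 (median -0.14, 6 at an unadjusted p below 0.05, 1 without overlap). Under upper quartile scaling 24 were lower, with 2 at that p. Of all genes 52% were lower, 3.353% at that p and 2.16% without overlap. The 1 without overlap (3.23%) is near the last share. Isg20, an RNA exonuclease, was at 36.9 ± 1.63 and 28.4 ± 5.58 CPM (SD). Without IL-2 replicate 2, 24 were lower and 1 had such a p, and without FP replicate 4, 27 and 2. In chemokine receptors and integrins 16 of 26 were higher after FP (median 0.04), with 4 higher at that p (2 without FP replicate 4). The share of all genes higher at that p was 2.476%. Among the 4 were the integrin chains Itgb3 (58.8 ± 5.62 and 75.2 ± 8.37 CPM) and Itga4 (469 ± 48.2 and 554 ± 41.2). Another was the gut homing receptor gene Ccr9 (9.81 ± 2.26 and 14.2 ± 2.38). Cell cycle genes were lower in 22 of 35 with a median of -0.02, or 15 of 35 with a median of 0.02 under upper quartile scaling, Cdk6, the kinase of the G1 phase, being at 450 ± 17.9 and 327 ± 73.8 CPM without overlap. The medians of the NF-kB, PI3K and mTOR, survival and other cytokine receptor lists were -0.01, -0.02, -0.0006 and -0.07. Under upper quartile scaling, which moved the median of all genes from -0.0084 to 0.03, the medians of the receptor (0.01), cholesterol (0.03), NF-kB (0.03), PI3K and mTOR (0.02) and survival (0.04) lists were positive. Immediate early and handling genes had a median of 0.06 and 0 of 24 at that p. Their score was 5.19 to 6.30 in the FP libraries and 5.03 to 5.96 in the IL-2 libraries, and without FP replicate 2, the highest, the median was -0.13, as it was -0.03 without IL-2 replicate 4. Fosb, a transcription factor induced by cell handling, ran from 44.5 to 277 CPM after FP, where replicate 2 was highest, and from 20.7 to 143 after IL-2.

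A set of IL-2 responsive genes was taken from libraries the comparison does not use. In the libraries labelled as in vitro at 1.5 h (3 with IL-2 and 3 with PBS, runs summed), 321 of 16629 genes (1.93%) were called with a change of at least 2-fold, 266 higher and 55 lower. Of the 266, 246 were tested in vivo, 170 of which (69.1%, beside 52% of all genes) had lower means after FP, the median difference being -0.09. Under upper quartile scaling 142 of 246 were lower with a median of -0.04, and without IL-2 replicate 2 it was 144 with a median of -0.06. Of the 55, 38 were tested, 29 of which were higher after FP (7982 of all 16643 genes were), with a median of 0.24. At an unadjusted p below 0.05, 2 were higher and 2 lower, beside 2.476% and 3.353% of all genes. Only 19 of the 38 intervals (50%) lay within 2-fold. List scores of FP and IL-2 libraries overlapped for both lists, and were low for the 38, at 1.452 to 1.72 and 1.271 to 1.538. The median difference of the 38 was 0.13 without FP replicate 4 or IL-2 replicate 3 and 0.16 without FP replicate 1, and 0.06 over the 1060 genes found with no minimum change. Those genes passed a filter on low counts in the in vivo table, so they are not all responsive genes. Leaving out FP replicate 4 gave 147 of 246 lower and a median of -0.05. A single FP injection in the restimulation table gave 2 such genes (0.0111% of those tested), too few to describe.

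At 16 h, the growth lists differed between the proteins in the opposite direction. There, with 4 libraries per group, the FP minus IL-2 difference itself had changed from that at 1.5 h in 3660 of 17580 genes (20.8%, edgeR test of the interaction), 2307 higher (13.1%) and 1353 lower (7.7%). Ribosome biogenesis had 49 of 50 genes called higher, with medians of -0.28 at 1.5 h and 1.09 at 16 h, tRNA synthetases 19 of 20 (-0.22 and 0.84), nucleotide genes 22 of 23 (-0.19 and 1.33) and STAT5 targets 17 of 28, with 2 called lower (-0.15 and 0.73). Resting and quiescence genes had 10 of 24 called lower (0.14 and -0.52). Interferon-stimulated genes had medians of -0.14 and -0.12, with 7 of 31 called higher.

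In the fit of both times together, Il2ra went from a difference of -0.08 to 1.70, being at 590 ± 23.1 CPM (SD) after IL-2 and 1922 ± 81.6 after FP at 16 h, an interaction of 1.79 ± 0.10 (SE, adjusted p 7.29e-12). The interaction of Lif was 4.17 ± 0.27, and Enah went from -0.83 to 5.62, Gzmb from -0.80 to 3.61, Slc7a5 from -0.58 to 1.76 and Socs1 from -0.22 to 1.92, and Tcf7 went the other way, from 0.45 to -0.91. Interactions of Stat5a, Il2rg, Jak3, Icos, Ctla4, Foxp3, Klf2, Pim2 and Il10 were not called. Outside the panel, genes with the smallest p were Gcsh, of the glycine cleavage system (4.03 ± 0.20), the replication genes Mcm5, Mcm2 and Lig1 (2.65, 2.64 and 2.39), Rmi2, of the complex that dissolves DNA junctions (2.86), and the potassium channel gene Kcnk5 (2.73). Called lower were Mturn, Tcp11l2, the stress gene Sesn1, the ubiquitin ligase gene Fbxo32, the repressor gene Bcl6 (-2.51) and Cmah, an enzyme of sialic acid.

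Between 1.5 h and 4 h, 2 of 17432 interactions were called (0.0115%), and 1354 had an unadjusted p below 0.05. At 4 h, 3 FP and 4 IL-2 libraries had labels that did not contradict each other. For Il2ra the SE of the interaction was 0.23 in this fit and 0.10 in the 16 h fit. With such a wider spread, fewer calls do not show that less had changed by 4 h. Map3k8, a kinase upstream of ERK, differed by -0.21 ± 0.11 (SE) at 1.5 h and by 1.16 ± 0.14 at 4 h, an interaction of 1.38 ± 0.19 (adjusted p 0.00659). Ripor2 went from 0.58 to -0.45, an interaction of -1.03 ± 0.15 (adjusted p 0.00659). Leaving out FP replicate 2, 3 or 4 or IL-2 replicate 1, 3 or 4 of the 1.5 h table gave 0 calls, and leaving out FP replicate 1 or IL-2 replicate 2 gave 1. List medians at 4 h lay between those of the other times for ribosome biogenesis (0.14), STAT5 targets (0.20) and nucleotide genes (0.18), with 0 members called in each. Time, table and the dates in the sample identifiers cannot be told apart in levels. Each difference was taken within its own table, where FP replicate 2 at 1.5 h carries another date than the rest.

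**Figure D5:**
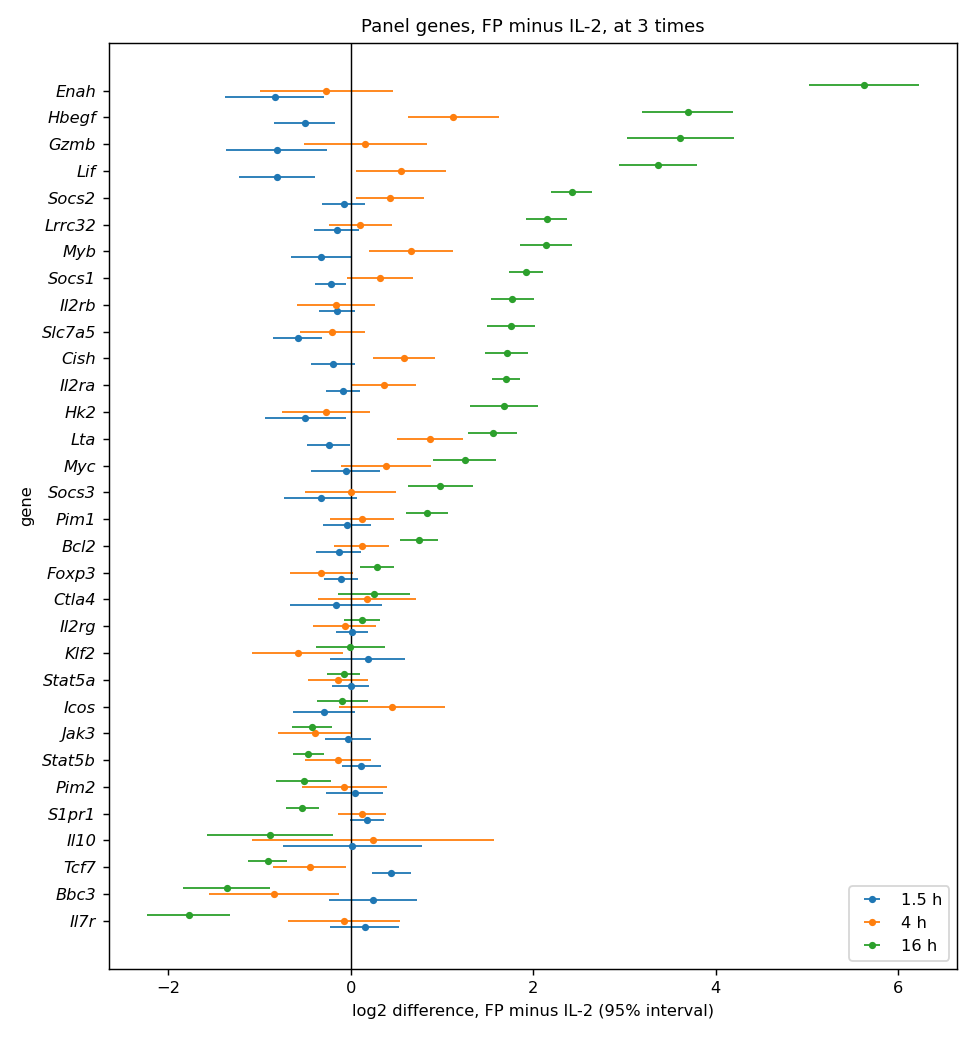
Log2 difference FP minus IL-2 with its 95% interval for the 32 panel genes at 1.5 h (blue), 4 h (orange) and 16 h (green), ordered by the 16 h value. At 1.5 h every point lies between -0.84 and 0.45, and at 16 h Enah reaches 5.62 and Il7r -1.77.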

How the data were processed

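Gene-level read counts of mouse Treg libraries were deposited by the authors as raw counts; per the submitters' processing notes and the series' design text, STAR 2.5.0, GRCm38, featureCounts 1.5.0 and GENCODE M13 were used. The table held only genes above 0.5 CPM in several libraries. Whether counting used strand is not given in the sources used here, so overlapping and antisense genes are uncertain. edgeR 4.0.16 (R 4.3.3, limma 3.58.1) fitted 1 mean per group over the 12 libraries of the 1.5 h table after filterByExpr and TMM scaling, and its quasi-likelihood test gave FP minus IL-2 with Benjamini-Hochberg adjustment and a threshold of 0.01. Interactions were fitted on 2 tables together. Alternatives were DESeq2 1.42.0, limma-voom, other scalings and filters, the replicate block and each library left out. CPM values are TMM-scaled. Named genes were a panel of 32, the 10 of smallest p per direction with at least 5 CPM and no overlap, the 3 of smallest p in each list, and 6 per direction for interactions. Members and lists were chosen with earlier results of these data known. At 4 h, 2 libraries with contradictory labels were left out. Gene positions came from GENCODE M21 (GRCm38) and promoters from RefSeq (GRCm38.p6). The fitting code was tested on simulated data.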

Additional observations from a re-analysis of the deposited data

Results flagged for a closer look

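Single libraries stood apart from the other 3 of their group in 9 of 204 groups of 4 checked over 102 genes, and in 2 of 48 over 24 lists. About 1 in 20 groups would do so by chance. FP replicate 4 was lowest in Il2ra (1840 CPM, the others 2130 to 2140), in Myb (165, the others 278 to 288), in Ctps (34.2, the others 45.1 to 46.8) and in the ribosome biogenesis score (6.054, the others 6.329 to 6.336). FP replicate 1 was highest in Rbpj (75.1 CPM) and in Eif2b3, a subunit of the eIF2B exchange factor (29.9). Among IL-2 libraries, replicate 1 was highest in Gzmb (16.4 CPM), replicate 4 was highest in Gpr83, a receptor gene of Tregs (562), and lowest in the feedback list score (6.1), and replicate 2 was lowest in Slc1a4 (2.47) and in Cdk4, a kinase of the cell cycle (73.1).

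The FP minus IL-2 difference changed between 1.5 h and 16 h in 3660 genes by the edgeR interaction test. Of the named genes, the change on the log2 scale was positive for Bcl2 0.8771, Enah 6.452, Il2ra 1.786, Hk2 2.176, Lrrc32 2.296, Slc7a5 2.335, Cish 1.898, Myb 2.458, Socs2 2.496, Lif 4.172, Socs3 1.306, Gzmb 4.411, Myc 1.295, Il2rb 1.918, Socs1 2.138, Pim1 0.8722, Lta 1.792, Hbegf 4.198, Gcsh 4.029, Mcm5 2.649, Mcm2 2.641, Rmi2 2.862, Lig1 2.391 and Kcnk5 2.729. It was negative for S1pr1 -0.7107, Bbc3 -1.609, Tcf7 -1.36, Stat5b -0.5868, Il7r -1.931, Mturn -2.016, Tcp11l2 -1.643, Sesn1 -1.317, Fbxo32 -1.526, Bcl6 -2.514 and Cmah -1.64. Between 1.5 h and 4 h a change was called in 2 genes, Map3k8 by 1.377 and Ripor2 by -1.032.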

How the results depend on the processing

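Within the 1.5 h table, no gene was called between FP and IL-2 by edgeR under any scaling, filter or left-out library tried, nor by limma-voom, and DESeq2 called 1, Ripor2 (log2 difference 0.5756, adjusted p 2.737e-05). The edgeR fit of the 24 libraries of the 1.5 h and 16 h tables also called Ripor2 at 1.5 h (adjusted p 0.00141). In the fits of the 1.5 h table alone, genes at an unadjusted p below 0.05 numbered 533 without FP replicate 4 to 1238 without IL-2 replicate 2, and up to 1269 without PBS replicate 4. With the replicate block there were 1108, 0 of them called, and 2 calls for the 4 h interaction. Same-numbered deviations correlated at -0.437, 0.112, 0.467 and 0.568 for replicates 1, 2, 3 and 4. Only replicate 4 correlated most with its own number. These values do not settle whether the numbers pair the samples. For the 4 h interaction DESeq2 gave 9 calls, RLE scaling 1, and leaving out 1 library 0 to 1. At 16 h all alternatives gave 3157 to 4067 calls. The in vitro list of lowered genes had a median of 0.0648 with no minimum change. Differences near 0 changed sign. Stat5a was 0.002226 with limma-voom, 0.04213 with upper quartile scaling, 0.0002278 with a filter of 1 CPM in 4 libraries, 0.006127 with FP and IL-2 libraries only and 0.001702 with the replicate block. Under upper quartile scaling Jak3 was 0.01114 and Pim1 0.004123. Leaving out 1 library gave -0.3005 to 0.01808 for Ctla4, -0.2373 to 0.2001 for Il10, -0.1099 to 0.04869 for Jak3, -0.1463 to 0.007651 for Socs2, -0.04955 to 0.04021 for Stat5a, -0.165 to 0.08831 for Myc, -0.09265 to 0.01645 for Pim1, -0.01989 to 0.08611 for Pim2 and -0.01663 to 0.05825 for Il2rg. Except where stated, the cause was not tested. List counts without single libraries were added after the data were seen.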
